A study of Mus musculus with 12 samples.

Results

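Tumour necrosis factor (TNF) receptor genes were followed in MEFs, the fibroblasts that grow out when mouse embryo tissue is put in culture. The genes were the 8 members named Tnfrsf18, Tnfrsf9, Tnfrsf11b, Tnfrsf12a, Tnfrsf19, Tnfrsf1a, Tnfrsf1b and Tnfrsf21. They were found as all probe sets that the platform annotation gives to these symbols alone, under a current or former name. That gave 16 probe sets of 22626 that are not controls, and 8 genes of 12393 with a probe set of their own. The family was selected on signals and contrasts of these same arrays, so the members' differences are given as a description, without p-values.

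TNF receptors are membrane or secreted proteins that bind ligands of the TNF family at the cell surface. Some carry a death domain, through which they can start caspase signalling, and others recruit TRAF adaptors that turn on NF-kB and JNK. A few are decoys that bind a ligand without passing on a signal, and in connective tissue the family is known for steering inflammation, survival and bone turnover.

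The arrays compare Rb null MEFs given 16 µM cisplatin for 24 h, wildtype MEFs given the same, untreated Rb null MEFs and untreated wildtype MEFs, with 3 arrays in each group. All were primary cells from day 13.5 embryos at passage 2. The label Rb null is given with no promoter, Cre line or other allele, and cisplatin is a platinum compound that crosslinks DNA. The design text speaks of 4 RNA samples put on arrays in triplicate, so the SDs, standard errors and p-values below may hold only the spread between hybridizations of 1 RNA. In total RNA of a culture, fewer cells of a type and less RNA per cell cannot be told apart.

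Facts about the arrays bear on what follows. Arrays of the same group correlated at 0.981 to 0.992, and arrays of different groups at 0.806 to 0.952. Rb1, the gene removed, gave signals of 74 to 102.5 in Rb null cisplatin cells and 344.4 to 452.1 in wildtype cisplatin cells. Without drug it gave 85.3 to 104.9 in Rb null cells and 419.9 to 487.5 in wildtype cells. Sex-linked transcripts set 1 group apart: the Y-linked Eif2s3y averaged at most 6.63 in the other 3 groups and 478 in untreated wildtype cells, while Xist averaged at least 2379 and 132. Differences taken against untreated wildtype cells carry this contrast of sex-linked transcripts too. In them it cannot be told apart from cisplatin or genotype, and its part in the results was not tested. All 9 measured fibroblast markers passed the level filter, and so did 15 of 18 macrophage and leukocyte markers. Of 13 measured T and NK cell markers 1 passed, Zap70. Cd3e, Cd3d and Cd3g, which define T cells, averaged at most 44.7 in any group, below the filter.

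Promoter sequences are shown for 4 members, the 3 with available sequence whose signal moved most and 1 that holds an NF-kB match. Each is the 250 bases before the annotated start in RefSeq (GRCm38.p6), read 5′ to 3′ on the gene's strand, with matches to the searched motifs in capitals. Tnfrsf18 lies on the plus strand, at chr4:156026072-156026321, and is shown as the gene with the strongest rise.
Tnfrsf18: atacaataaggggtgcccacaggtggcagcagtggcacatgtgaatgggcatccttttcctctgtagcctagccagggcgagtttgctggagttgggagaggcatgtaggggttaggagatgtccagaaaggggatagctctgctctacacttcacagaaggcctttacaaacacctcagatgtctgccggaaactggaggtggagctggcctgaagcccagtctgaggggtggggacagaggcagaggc
Tnfrsf1b lies on the minus strand, at chr4:145246871-145247120, and is shown because it rose under cisplatin in wildtype cells and was not called in Rb null cells.
Tnfrsf1b: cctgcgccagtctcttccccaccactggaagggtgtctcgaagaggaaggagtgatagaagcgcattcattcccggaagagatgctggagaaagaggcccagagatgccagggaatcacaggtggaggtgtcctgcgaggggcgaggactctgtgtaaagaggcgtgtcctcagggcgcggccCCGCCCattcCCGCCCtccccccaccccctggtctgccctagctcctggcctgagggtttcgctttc
Tnfrsf21 lies on the plus strand, at chr17:43016305-43016554, and is shown because its signal went opposite ways in the 2 genotypes.
Tnfrsf21: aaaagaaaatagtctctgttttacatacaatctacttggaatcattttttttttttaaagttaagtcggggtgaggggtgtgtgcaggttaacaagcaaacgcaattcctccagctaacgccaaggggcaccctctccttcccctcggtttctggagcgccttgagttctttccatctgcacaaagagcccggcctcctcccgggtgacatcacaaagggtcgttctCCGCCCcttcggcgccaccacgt
Tnfrsf9 has a second start on the plus strand, at chr4:150927749-150927998, and is shown as the member window with a match to the NF-kB consensus.
Tnfrsf9: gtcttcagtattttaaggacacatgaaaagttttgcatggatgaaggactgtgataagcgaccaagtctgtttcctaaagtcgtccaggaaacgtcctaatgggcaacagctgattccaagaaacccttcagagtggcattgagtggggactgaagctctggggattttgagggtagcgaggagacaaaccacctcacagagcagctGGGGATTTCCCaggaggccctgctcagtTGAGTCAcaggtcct

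A set of 7 motifs were searched on both strands, and their shares are given over 32851 promoters of this length. The NF-kB consensus matched in 7.25% of those and the p53 half-site consensus in 7.13%. The AP-1 motif (TGANTCA) matched in 6.75%. The E2F motif (TTTNNCGC) matched in 4.28%. The Sp1 motif (GGGCGG) was the most common, in 32.7%. The cyclic AMP response element (TGACGTCA) matched in 1.55%, and the TATA box (TATAAA) in 12.4%. The Tnfrsf18 window held 0 matches to any of them. The Tnfrsf1b window held 2 Sp1 matches, 67 to 62 and 57 to 52 bases before the start, and the Tnfrsf21 window held 1, 23 to 18 bases before it. The Tnfrsf9 window held 2 overlapping NF-kB matches, 43 to 34 and 42 to 33 bases before the start, and an AP-1 match 15 to 9 bases before it. Of the windows not printed, the other Tnfrsf9 start held 1 Sp1 match, Tnfrsf12a held 5 Sp1 matches, Tnfrsf1a held 1 E2F match, and Tnfrsf19 held 3 Sp1 matches at one start and 0 at the other. A match is a string of letters, not a shown binding site, and a window without one says only that these letters are not in it. For Tnfrsf11b no promoter was used here.

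Signals below are linear MAS5 intensities, in which 1 probe set stands for a gene. Log2 changes come from log2(signal + 10.4) in a limma fit to all 12 arrays and carry their standard error. A gene was called when its Benjamini-Hochberg adjusted p was under 0.05 and its change at least 1.5-fold. The 40% of probe sets with the lowest mean were not tested, which left 7909 genes. Of the members, 6 passed this filter, at a signal of about 105, and Tnfrsf9 and Tnfrsf19 did not.

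**Figure D1:**
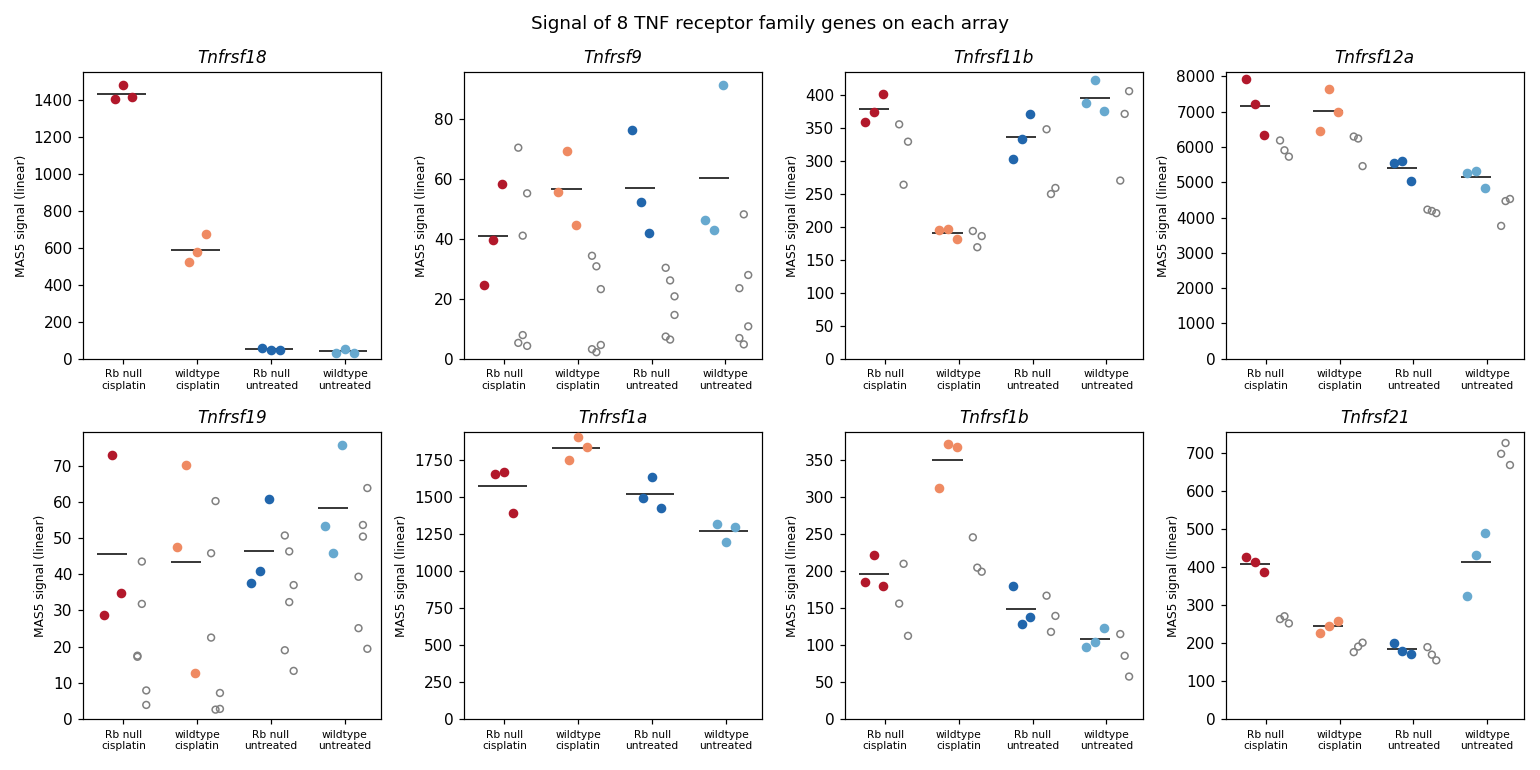
Signal of the 8 receptor genes on every array (MAS5 intensity, linear axis from 0, own scale per gene). Filled points are the probe set used, bars are group means over 3 arrays, and open grey points are other probe sets of the gene. Tnfrsf18 stands at 523.3 to 1482.2 in cisplatin cells and at 30.2 to 60.3 in untreated cells.

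The strongest difference was in Tnfrsf18, which encodes GITR, a receptor best known as a costimulator on T cells and a marker of regulatory T cells. Its probe set gave 1405.3, 1482.2 and 1416.2 in Rb null cisplatin cells, and 523.3, 579.5 and 673.6 in wildtype cisplatin cells. Untreated cells gave 60.3, 49.8 and 47.6 when Rb null, and 34, 54.4 and 30.2 when wildtype. Every cisplatin array thus lay above every untreated one, every Rb null cisplatin array above every wildtype cisplatin one, and the untreated groups overlapped. All untreated values are under the filter level, so the gene was tested only through its cisplatin groups.

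Group means of Tnfrsf18 were 1435 ± 41.6 in Rb null cisplatin cells, 592 ± 75.9 in wildtype cisplatin cells, 52.6 ± 6.79 in untreated Rb null cells and 39.5 ± 13.0 in untreated wildtype cells (SD, n = 3 each). The ratio of cisplatin to untreated mean signal was 27.3 in Rb null cells and 15.0 in wildtype cells. On the log2 scale the rise was 4.53 ± 0.16 in Rb null cells and 3.62 ± 0.16 in wildtype cells, where the added 10.4 understates it. By size of rise Tnfrsf18 ranked 2 of 7909 genes in Rb null cells and 9 in wildtype cells. Its response was larger by 0.91 ± 0.23 in Rb null cells, over untreated signals that lay below the filter, and under cisplatin its signal was 1.27 ± 0.16 higher in Rb null than in wildtype cells.

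T cell markers were followed beside Tnfrsf18. Summed over 13 T and NK cell markers, signals ran from 1095.9 to 1148.1 in Rb null cisplatin cells, 844.3 to 1036.2 in wildtype cisplatin cells, 661.4 to 843 in untreated Rb null cells and 595.7 to 947.7 in untreated wildtype cells. Zap70, a T cell kinase, was the single tested marker and the brightest of the 13 in each group, at 595 ± 83.5 in Rb null cisplatin cells and 354 ± 46.7 in untreated Rb null cells (SD, n = 3). It was called higher in that contrast, with a log2 change of 0.73 ± 0.19 and a Benjamini-Hochberg adjusted p from limma of 0.0041. Cd3d, a subunit of the T cell receptor complex, averaged 7.03, 6.73, 6.1 and 7.13 in Rb null cisplatin, wildtype cisplatin, untreated Rb null and untreated wildtype cells. Klrd1, an NK cell receptor gene below the filter and so not tested, gave 144.2, 89 and 161 in Rb null cisplatin, 122.5, 107.9 and 117.8 in wildtype cisplatin, 35.3, 8.2 and 30.2 in untreated Rb null, and 18.9, 52.9 and 29.6 in untreated wildtype cells. Like Tnfrsf18 it was higher on every cisplatin array than on every untreated one, and the part of such markers in the Tnfrsf18 values was not tested.

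The genes whose log2 signal followed Tnfrsf18 most closely over the 12 arrays, among 7903 others, were Plau at r = 0.997, Ercc5 at r = 0.995 and Fos at r = 0.994. Plau encodes the protease urokinase, Ercc5 a nuclease of nucleotide excision repair, and Fos a subunit of the AP-1 transcription factor. The 12 points fall into 4 groups, so these values, and those given below for other members, describe the order of the groups and carry no p. Plau averaged 1097 in Rb null cisplatin, 573 in wildtype cisplatin, 104 in untreated Rb null and 83.0 in untreated wildtype cells. Chromosomal neighbours behaved otherwise. Tnfrsf4, which encodes the related T cell costimulator OX40 and lies next to it, ranged from 268.6 to 381.9 over all 12 arrays. Its change stayed under 1.5-fold in each of the 5 contrasts, as did that of Sdf4, the next gene. B3galt6, a further neighbour, was at -0.14 ± 0.16 under cisplatin in Rb null cells and rose by 1.27 ± 0.16 in wildtype cells.

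**Figure D2:**
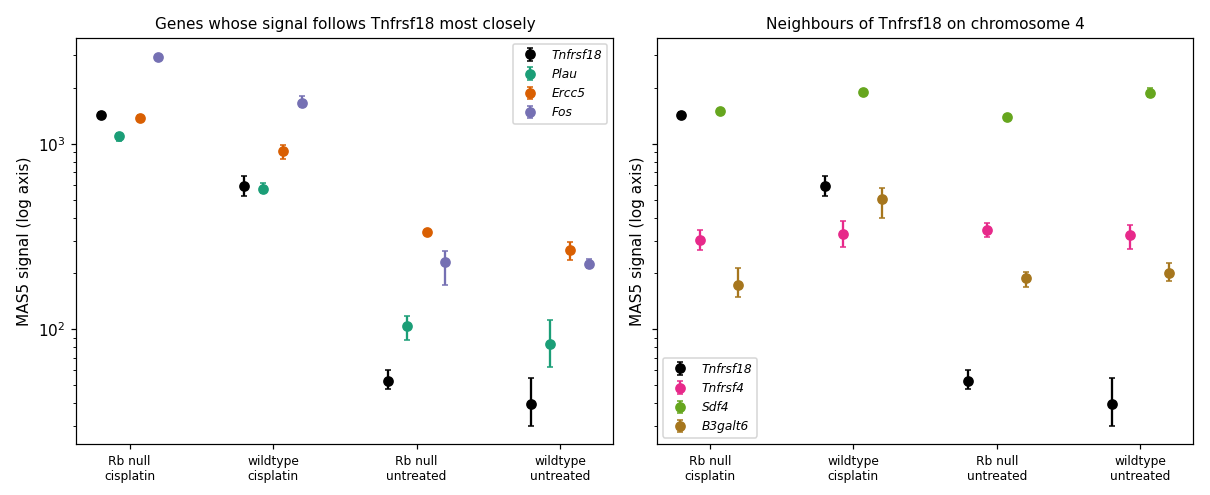
Mean MAS5 signal (log axis, bars from the lowest to the highest of 3 arrays) of Tnfrsf18 beside the 3 genes most correlated with it (left) and beside chromosomal neighbours (right). Levels are comparable between groups within a gene, not between genes. Plau, Ercc5 and Fos fall in the same order of cisplatin groups as Tnfrsf18, while Tnfrsf4 stays between 268.6 and 381.9.

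Tnfrsf9 encodes 4-1BB, another costimulatory receptor of T cells. Its brightest probe set gave 24.5, 39.7 and 58.2 in Rb null cisplatin cells, 55.7, 69.2 and 44.4 in wildtype cisplatin cells, 76.3, 52.3 and 42 in untreated Rb null cells and 46.1, 43 and 91.1 in untreated wildtype cells. All groups overlapped there, and the gene was under the filter. A second, dimmer probe set gave 70.3, 41 and 55.1 in Rb null cisplatin, 34.3, 30.8 and 23.2 in wildtype cisplatin, 30.3, 26.1 and 20.8 in untreated Rb null, and 23.5, 48.1 and 27.9 in untreated wildtype cells. On it the Rb null cisplatin arrays lay above wildtype cisplatin and untreated Rb null arrays, by 0.71 ± 0.26 and 0.85 ± 0.26 on the log2 scale. The third, with group means of 9.47 or less, was lower after cisplatin in wildtype cells without overlap. The 3 probe sets disagree, so no direction is given for the gene. Its ligand gene Tnfsf9, by contrast, was the one TNF ligand of 14 measured that passed the filter. Tnfsf9 averaged 368 ± 26.1 in Rb null cisplatin, 335 ± 88.2 in wildtype cisplatin, 364 ± 18.4 in untreated Rb null and 182 ± 22.9 in untreated wildtype cells (SD, n = 3). It rose under cisplatin in wildtype cells by 0.82 ± 0.15 (limma, Benjamini-Hochberg adjusted p = 3.0e-04), and without drug it was higher in Rb null than wildtype cells by 0.97 ± 0.15 (adjusted p = 1.6e-04). In Rb null cells its cisplatin change was 0.013 ± 0.15.

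The receptors of TNF itself had the same order of group means and differed in the size of their changes. Tnfrsf1a encodes TNFR1, the widely expressed receptor with a death domain. Its probe set gave 1661.1, 1674.5 and 1390.6 in Rb null cisplatin, 1755.1, 1905.8 and 1840.7 in wildtype cisplatin, 1493.3, 1638.3 and 1430 in untreated Rb null, and 1322.1, 1198 and 1295.9 in untreated wildtype cells. Wildtype cisplatin arrays were above all the others, untreated wildtype arrays below all the others, and the Rb null groups overlapped. None of its contrasts reached 1.5-fold: cisplatin minus untreated was 0.048 ± 0.083 in Rb null cells and 0.52 ± 0.083 in wildtype cells, and the responses differed by -0.48 ± 0.12.

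Tnfrsf1b encodes TNFR2, which has no death domain and is known mostly from leukocytes and endothelium. Its probe set gave 184.8, 221.7 and 179.1 in Rb null cisplatin cells and 312.1, 371.3 and 366.5 in wildtype cisplatin cells. Untreated cells gave 178.9, 128.1 and 138.1 when Rb null and 97.2, 103.7 and 122.4 when wildtype. No group overlapped its neighbour, although the lowest cisplatin array and the highest untreated array of Rb null cells were close, at 179.1 and 178.9. Tnfrsf1b rose in wildtype cells by 1.61 ± 0.15, rank 158 of 7909, and changed by 0.38 ± 0.15 in Rb null cells, which was not called. The responses differed by -1.23 ± 0.21, and under cisplatin Rb null cells were lower than wildtype cells, at -0.81 ± 0.15. A second probe set gave the same order of means but -0.45 ± 0.24 under cisplatin, which was not called, and 0.69 ± 0.24 without drug, which was.

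Most like Tnfrsf1b over the 12 arrays were Acvrl1 at r = 0.975, Nit1 at r = 0.971 and Zfp213 at r = 0.969. Summed macrophage markers, like Tnfrsf1b, were highest in wildtype cisplatin cells. Summed over 18 markers, they ran from 6335.9 to 6551.2 in Rb null cisplatin, 12143.1 to 12685 in wildtype cisplatin, 8277.3 to 8741.6 in untreated Rb null and 6348.4 to 6695.5 in untreated wildtype cells. Bright markers weigh most in such linear sums, among them Lyz2, which averaged 1087 in Rb null cisplatin and 4174 in wildtype cisplatin cells. Of 15 tested, 2 were called higher and 10 lower under cisplatin in Rb null cells, where 16.6% of all genes were called higher and 20.3% lower. In wildtype cells 5 were called, all higher, where 14.8% of all genes were called higher and 12.7% lower. In 11 of the 15 the response was called lower in Rb null than in wildtype cells, as it was in 15.0% of all genes. None of the 18 was listed at 0 on any array, and their part in the Tnfrsf1b difference was not tested. In Rb null cells the sums were lower after cisplatin, while Tnfrsf1b averaged 195 ± 23.1 in cisplatin cells and 148 ± 26.9 in untreated cells (SD, n = 3).

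Tnfrsf21 encodes DR6, a death domain receptor. Its probe set gave 426.1, 412.3 and 385.9 in Rb null cisplatin cells and 227, 245.6 and 257.8 in wildtype cisplatin cells. Untreated cells gave 200.3, 177.5 and 170.8 when Rb null and 323.2, 430.5 and 487.4 when wildtype. The Rb null cisplatin and untreated wildtype arrays overlapped at the top, wildtype cisplatin lay below them, and untreated Rb null lay lowest. Under cisplatin it rose by 1.12 ± 0.13 in Rb null cells and fell by 0.72 ± 0.13 on the log2 scale in wildtype cells, so the responses differed by 1.84 ± 0.19, the largest difference of responses among the 6 tested members. Rb null minus wildtype was 0.72 ± 0.13 under cisplatin and -1.12 ± 0.13 without drug.

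A second Tnfrsf21 probe set gave the same order of group means, at 261 ± 9.47, 189 ± 12.5, 171 ± 17.5 and 696 ± 29.0 in Rb null cisplatin, wildtype cisplatin, untreated Rb null and untreated wildtype cells (SD, n = 3). There the untreated wildtype group stood alone at the top. The fall in wildtype cells was -1.83 ± 0.10 and the rise in Rb null cells 0.59 ± 0.10, both called, while Rb null minus wildtype under cisplatin, at 0.45 ± 0.10, was not. On this probe set the responses differed by 2.42 ± 0.14, against 1.84 ± 0.19 on the first. The size of the Tnfrsf21 differences thus depends on the probe set, and the direction does not. Ddit3, a transcription factor of the integrated stress response, followed the first probe set most closely over the 12 arrays, at r = 0.957. Dusp3 came next at r = 0.916 and Gap43 at r = 0.908. Likeness to the second probe set was not computed.

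Tnfrsf11b encodes osteoprotegerin, a secreted decoy that binds RANKL and so limits osteoclast formation. Its probe set gave 359, 374.3 and 402 in Rb null cisplatin cells and 195, 197 and 181 in wildtype cisplatin cells. Untreated cells gave 302.5, 334.1 and 370.6 when Rb null and 388.7, 422.5 and 376.2 when wildtype. Wildtype cisplatin arrays were lowest and apart from the rest, untreated Rb null arrays all lay below untreated wildtype ones, and Rb null cisplatin arrays overlapped both. Tnfrsf11b fell by 1.01 ± 0.10 on the log2 scale under cisplatin in wildtype cells and was at 0.17 ± 0.10 in Rb null cells, where arrays overlapped. The responses differed by 1.18 ± 0.14, and under cisplatin Rb null cells were higher by 0.95 ± 0.10. The second probe set put the groups in the same order, and the fall there was -0.88 ± 0.16.

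The genes most like Tnfrsf11b over the 12 arrays were Ero1a at r = 0.985, Igf2 at r = 0.971 and Cox18 at r = 0.957. Igf2, the imprinted growth factor gene, averaged 5464 in Rb null cisplatin, 801 in wildtype cisplatin, 5422 in untreated Rb null and 6853 in untreated wildtype cells. The gene of the decoy's ligand, Tnfsf11 (RANKL), was under the filter and so was not tested. It gave 88.3, 73.5 and 76.3 in Rb null cisplatin, 229.3, 173.1 and 180.9 in wildtype cisplatin, 79.1, 58.5 and 74.6 in untreated Rb null, and 47.4, 61.1 and 52.5 in untreated wildtype cells. Its 3 wildtype cisplatin arrays were above all 9 others, in the group where Tnfrsf11b was lowest. Of 5 osteoblast markers measured, 1 was tested.

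Tnfrsf12a encodes Fn14, the receptor of TWEAK and a gene known to respond to growth factors and injury. Its probe set gave 7920.8, 7228.7 and 6346.5 in Rb null cisplatin, 6440.8, 7642.7 and 6995.9 in wildtype cisplatin, 5551.6, 5599.1 and 5029.9 in untreated Rb null, and 5272.9, 5324.9 and 4842.8 in untreated wildtype cells. Cisplatin arrays were above untreated arrays in both genotypes, and the genotypes overlapped in both conditions. The cisplatin change was 0.40 ± 0.082 in Rb null cells and 0.45 ± 0.082 in wildtype cells, under 1.5-fold and so not called. The responses differed by -0.04 ± 0.12.

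Tnfrsf19 encodes TROY, a receptor known from the embryo and the nervous system. It had 3 probe sets, all under the filter. The one used gave 28.8, 72.9 and 34.7 in Rb null cisplatin, 47.4, 70.3 and 12.6 in wildtype cisplatin, 37.7, 40.8 and 60.7 in untreated Rb null, and 53.4, 45.8 and 75.6 in untreated wildtype cells. The groups overlapped throughout on it and on a second probe set. The third gave 17.2, 31.8 and 3.9 in Rb null cisplatin, 22.5, 2.6 and 2.8 in wildtype cisplatin, 50.7, 32.3 and 37 in untreated Rb null, and 39.3, 53.6 and 63.8 in untreated wildtype cells. On that one cisplatin arrays lay below untreated arrays in both genotypes, at -0.96 ± 0.41 in Rb null and -1.80 ± 0.41 in wildtype cells, at signals far under the filter.

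**Figure D3:**
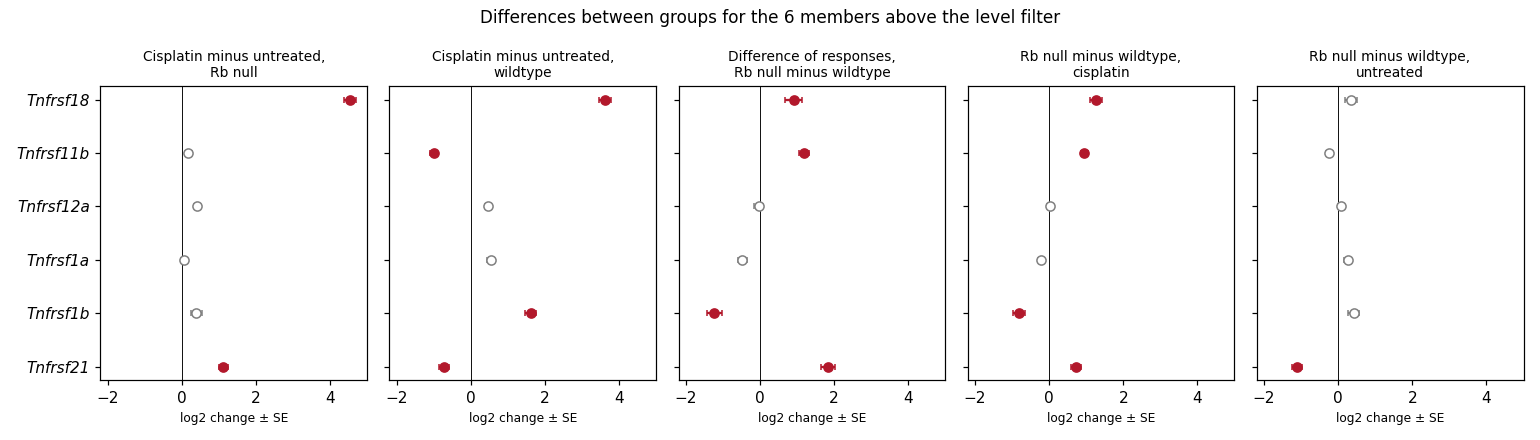
Log2 change ± SE of the 6 members above the level filter in the 5 contrasts (limma, 12 arrays). Filled red points were called and open grey points were not. Tnfrsf18 lies at 4.53 and 3.62 in the cisplatin contrasts, and Tnfrsf21 and Tnfrsf11b lie on the other side of 0 from Tnfrsf1b in the difference of responses.

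Counted over the 8 members, of which 6 were tested, the calls ran as follows, beside the share of all 7909 genes called the same way. Under cisplatin 2 members were called in Rb null cells, both higher (Tnfrsf18 and Tnfrsf21), where 16.6% of genes were called higher and 20.3% lower. In wildtype cells 2 were higher (Tnfrsf18 and Tnfrsf1b) and 2 lower (Tnfrsf11b and Tnfrsf21), where 14.8% of genes were higher and 12.7% lower. The difference of responses was called higher in 3 members (Tnfrsf18, Tnfrsf11b and Tnfrsf21) and lower in 1 (Tnfrsf1b), against 8.70% and 15.0% of genes. Rb null minus wildtype under cisplatin had the same 3 higher and the same 1 lower, against 9.71% and 13.3%. Without drug 1 member was called, lower in Rb null cells (Tnfrsf21), where 8.09% of genes were called higher and 5.04% lower. The contrasts share arrays with each other and the members were chosen with them known, so nothing is read from these counts.

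Receptors of the family that are not members were followed as a list of 20 genes, of which 17 were measured and 8 tested. Under cisplatin 5 of the 8 were called in Rb null cells and 3 in wildtype cells, all higher, where 16.6% and 14.8% of all genes rose. The median log2 change of the 8 was 1.18 in Rb null cells, against -0.02 for all genes, and 0.51 in wildtype cells, against 0.06. Fas, the death receptor of FAS ligand, averaged 665 ± 100.1 in Rb null cisplatin, 229 ± 36.3 in wildtype cisplatin, 146 ± 16.4 in untreated Rb null and 76.9 ± 11.7 in untreated wildtype cells (SD, n = 3). It rose by 2.11 ± 0.15 in Rb null and 1.46 ± 0.15 in wildtype cells (limma, Benjamini-Hochberg adjusted p = 2.2e-08 and 1.7e-06), with no overlap of arrays.

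In Rb null cells 3 receptors of the death ligand TRAIL rose. Tnfrsf10b, its mouse death receptor, averaged 446 ± 56.4 in Rb null cisplatin and 298 ± 56.5 in wildtype cisplatin cells, against 194 ± 8.14 in untreated Rb null and 209 ± 13.2 in untreated wildtype cells (SD, n = 3). Its rise of 1.16 ± 0.13 in Rb null cells was called (limma, Benjamini-Hochberg adjusted p = 2.6e-06), and 0.47 ± 0.13 in wildtype cells was not. The adjacent genes Tnfrsf22 and Tnfrsf23, known in mice as decoy receptors of TRAIL, rose by 1.47 ± 0.076 and 1.52 ± 0.089 in Rb null cells and by 0.73 ± 0.076 and 0.61 ± 0.089 in wildtype cells. The call of Tnfrsf23 in wildtype cells was lost without wildtype cisplatin array c, at 0.57, and without untreated wildtype array 2, at 0.56. Sequences of close relatives may share probes, which was not tested.

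Cd40, a costimulatory receptor of antigen-presenting cells, went the opposite way in the genotypes, like Tnfrsf21. It gave 248.1, 185.4 and 205.4 in Rb null cisplatin, 120.8, 97.5 and 86 in wildtype cisplatin, 79.7, 104.4 and 74.6 in untreated Rb null, and 165, 154.9 and 143.7 in untreated wildtype cells. Arrays did not overlap between any pair of genotypes or treatments compared. It rose by 1.21 ± 0.17 in Rb null cells (limma, Benjamini-Hochberg adjusted p = 2.3e-05) and changed by -0.57 in wildtype cells, which was not called. That wildtype change passed when wildtype cisplatin array a or untreated wildtype array 3 was left out. The responses differed by 1.78 ± 0.24 (adjusted p = 6.1e-05).

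Downstream of the receptors, 21 of 28 listed adaptors and proximal signalling proteins were tested. Under cisplatin 3 rose and 2 fell in Rb null cells, and 2 rose and 1 fell in wildtype cells. Among all genes 16.6% rose and 20.3% fell in Rb null cells, and 14.8% rose and 12.7% fell in wildtype cells. With only 21 genes tested, and the list chosen with earlier results known, nothing is read from these counts. The largest rise in Rb null cells was that of Ripk3, the kinase of necroptosis, at 1.64 ± 0.063 (limma, Benjamini-Hochberg adjusted p = 2.6e-11). Ripk3 averaged 1924 ± 29.2 in Rb null cisplatin, 1393 ± 9.47 in wildtype cisplatin, 612 ± 24.1 in untreated Rb null and 1034 ± 43.4 in untreated wildtype cells (SD, n = 3), so it was lower in Rb null cells without drug and its arrays did not overlap between groups. Birc2, the ubiquitin ligase cIAP1, rose by 1.26 ± 0.15 in Rb null cells. Rbck1, a subunit of the linear ubiquitin chain complex, rose by 0.60 ± 0.076 in Rb null and 1.15 ± 0.076 in wildtype cells. Its call in Rb null cells was lost without Rb null cisplatin array c, at 0.58, and without untreated Rb null array 1, at 0.56. Map3k7, the kinase TAK1, rose by 0.91 ± 0.11 in wildtype cells. Traf5, an adaptor, fell in both genotypes, at -1.72 ± 0.22 in Rb null and -1.20 ± 0.22 in wildtype cells. Ikbkb, the IkB kinase beta, fell in Rb null cells, at -0.66 ± 0.096, and was at -0.52 and no longer called when arrays were centred on their median.

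Of 14 listed feedback inhibitors and NF-kB subunits, 9 were tested, and 5 rose in Rb null cells, where 16.6% of all genes rose. In wildtype cells 4 rose and 1 fell, where 14.8% of all genes rose and 12.7% fell. Nfkbia, which encodes the NF-kB inhibitor IkB-alpha, averaged 7075 ± 288 in Rb null cisplatin, 4554 ± 210.1 in wildtype cisplatin, 2836 ± 52.0 in untreated Rb null and 3318 ± 270.1 in untreated wildtype cells (SD, n = 3). It rose by 1.32 ± 0.064 in Rb null cells (limma, Benjamini-Hochberg adjusted p = 2.8e-10), and its change of 0.46 in wildtype cells was under 1.5-fold. Tnip2, a partner of A20, rose by 1.32 ± 0.15 in Rb null and 0.65 ± 0.15 in wildtype cells, where its call was lost without untreated wildtype array 2, at 0.58. Tnfaip3, the inhibitor A20 itself, fell by 1.04 ± 0.19 on the log2 scale in wildtype cells and was at 0.36 in Rb null cells. The subunit genes Rela, Rel and Nfkb2 rose in both genotypes, with log2 changes of 0.96, 0.99 and 1.16 in Rb null cells and 0.75, 0.82 and 0.84 in wildtype cells.

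Receptors are also cut from the surface, and 4 of 6 listed genes of that process were tested. Timp3, an inhibitor of the sheddase ADAM17, averaged 873 ± 97.4 in Rb null cisplatin, 2228 ± 242 in wildtype cisplatin, 1758 ± 164 in untreated Rb null and 3793 ± 207 in untreated wildtype cells (SD, n = 3). It was lower in Rb null than wildtype cells, at -1.11 ± 0.098 without drug and -1.34 ± 0.098 with cisplatin. It fell under cisplatin in both genotypes, by 1.00 ± 0.098 in Rb null and 0.77 ± 0.098 in wildtype cells on the log2 scale. Adam10, a protease that also sheds surface proteins, fell by 0.84 ± 0.11 and 0.78 ± 0.11. The change of the ADAM17 gene itself stayed under 1.5-fold in each contrast.

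**Figure D4:**
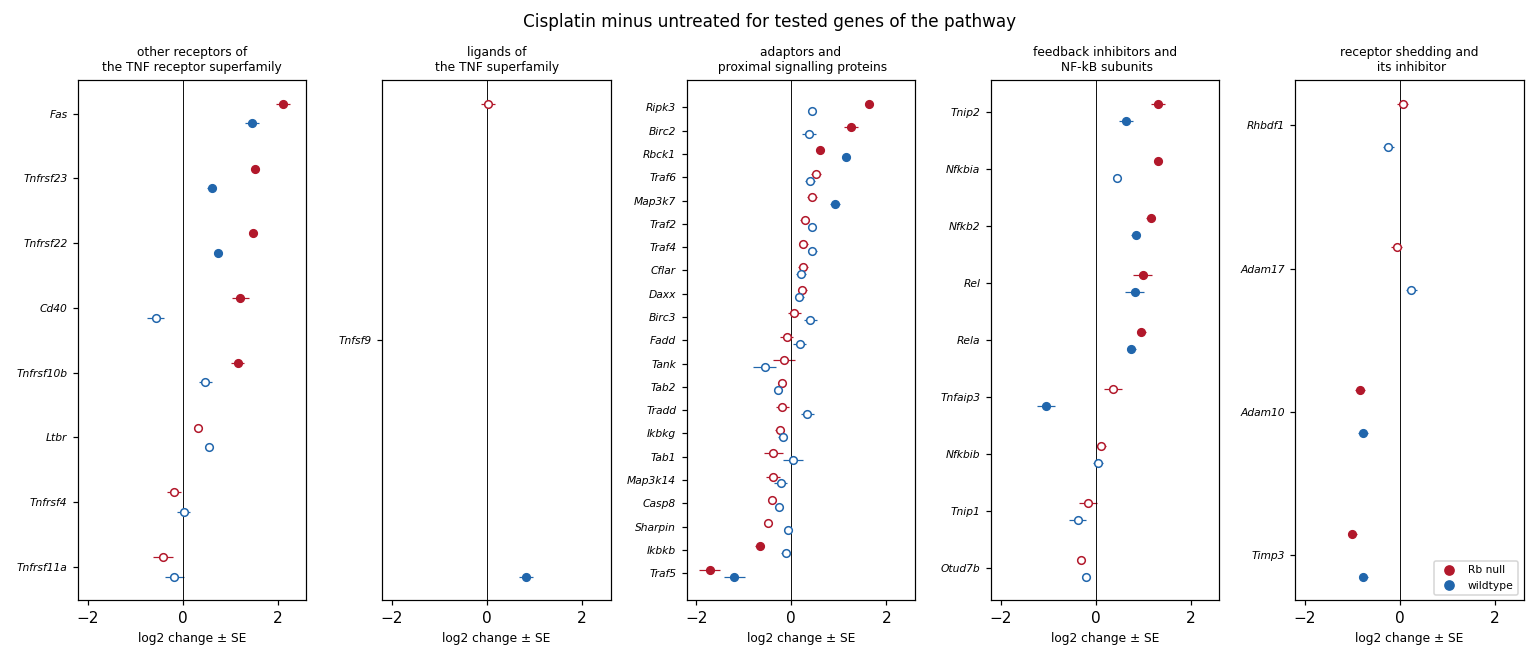
Log2 change ± SE under cisplatin (cisplatin minus untreated) of tested pathway genes that are not members, in Rb null cells (red, upper) and wildtype cells (blue, lower). Filled points were called. Among the other receptors Fas, Tnfrsf22 and Tnfrsf23 are filled in both genotypes, and Cd40 and Tnfrsf10b in Rb null cells.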

How the data were processed

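RNA of MEFs, 6 µg for each of 12 hybridizations, was labelled with biotin and put on Affymetrix mouse arrays. The deposited values are signal intensities made by the authors with MAS5, per the submitters' processing notes. Its version, scaling target and detection calls are not given in the sources used here, so no probe set could be called absent. Trimmed means of the arrays were 500.1 to 500.2, which puts the arrays on 1 scale.

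Intensities were converted to log2(signal + 10.4), the 10th percentile of all values, which understates changes of weak genes. Control probe sets (64) and the 40% with the lowest mean were left out, and 13575 were tested. The annotation gave 20380 probe sets a single gene, 691 several and 1555 none. A gene was represented by 1 probe set, without a cross-hybridization suffix where possible, then the brightest. Group means were fitted with limma 3.58.1 in R 4.3.3 (eBayes with trend, 8 residual and 6.09 prior degrees of freedom) and adjusted over all tests of a contrast by Benjamini-Hochberg, two-sided. The fit was tested on simulated data. The number of arrays limits the precision.

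Groups came from the sample labels. The members and all 12 gene lists were chosen with earlier results of these data known, so the p-values of listed genes describe and are not independent tests. Named genes are all members, the called genes of each list where 5 or fewer were called in a direction (otherwise the 4 with the largest change), sex-linked transcripts, and the 3 genes most correlated with each member whose group means span at least 2-fold. The text gives a selection, and neighbours of Tnfrsf18, Tnfsf11 and other listed genes that were not called were named after their values were seen. Alternatives were the pseudocount, filter, normalization, variance trend, fold minimum, arrays in the fit, a replicate block and the probe set. Promoters came from RefSeq, with 7 of 8 members matched.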

Additional observations from a re-analysis of the deposited data

Results flagged for a closer look

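By the limma test of the difference itself, the cisplatin response was called as differing between the genotypes in 11 genes of the pathway lists. Those lists held 8, 1, 21, 9 and 4 tested genes, and of all 7909 genes 8.70% were called higher and 15.0% lower. They were chosen with earlier results known, so nothing is read from this count. The neighbour gene B3galt6, named after its values were seen, Xist and 4 members met the same rule. Among the marker lists the response was lower in Rb null cells in 11 of 15 tested macrophage and leukocyte markers and 6 of 9 fibroblast markers. Values are log2 differences, Rb null minus wildtype. Members were chosen with these contrasts known, and untreated Tnfrsf18 signals lay below the filter level, so the members' values describe and do not test. They were 0.91 for Tnfrsf18, 1.18 for Tnfrsf11b, -1.23 for Tnfrsf1b and 1.84 for Tnfrsf21.

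Among other receptors the difference was 1.78 for Cd40, 0.91 for Tnfrsf23, 0.73 for Tnfrsf22, 0.68 for Tnfrsf10b and 0.65 for Fas. The call of Fas (limma, Benjamini-Hochberg adjusted p = 0.030) was lost without Rb null cisplatin array c, wildtype cisplatin array a or b, untreated Rb null array 1, or untreated wildtype array 2 or 3, with differences of 0.54 to 0.61. The call of Tnfrsf10b was lost without wildtype cisplatin array c, at 0.55.

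For the ligand Tnfsf9 the difference was -0.81. For the signalling genes Birc2 and Ripk3 it was 0.89 and 1.21. For B3galt6 it was -1.40, and for Xist -3.94. For the inhibitors Tnfaip3, Nfkbia and Tnip2 it was 1.40, 0.86 and 0.68, and the call of Tnip2 was lost without Rb null cisplatin array b, at 0.60, or c, at 0.61. All these differences use the untreated wildtype group, which stood apart in its sex-linked transcripts. The part of that cannot be told apart in them from cisplatin or genotype and was not tested.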

How the results depend on the processing

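The number of members called was 1 for Rb null minus wildtype without drug, 4 with cisplatin, 4 for cisplatin in wildtype cells, 2 in Rb null cells and 4 for the difference of responses. Leaving out each of the 12 arrays in turn kept these counts, so the lowest and the highest were 1 and 1, 4 and 4, 4 and 4, 2 and 2, and 4 and 4. With the filter at 60%, which leaves out Tnfrsf18 and Tnfrsf1b, they became 2 with cisplatin, 2 in wildtype cells, 1 in Rb null cells and 2 for the difference. With a fold minimum of 2 the cisplatin count was 1, and with no fold minimum the count without drug was 3 and that in Rb null cells 4. At 2-fold the Tnfrsf21 response in wildtype cells, at -0.72, and the Tnfrsf18 difference of responses, at 0.91, were also too small to be called. Not every count that moved with the fold minimum is listed here. With the other probe set of each member the count was 2 without drug and 2 with cisplatin. No direction of a called member or listed gene was reversed. Of the members' log2 values under alternatives, 688 kept their side of the threshold, 9 passed it and 7 lost it; for other named genes these were 3141, 61 and 75. The Tnfrsf18 rise ran from 3.91 to 4.75 in Rb null and from 2.91 to 3.91 in wildtype cells.

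The fit with the number or letter of the sample label as a replicate block allowed 3 contrasts and called the same number of members, 1 without drug, 4 with cisplatin and 4 for the difference. Between genotypes, correlations of deviations of arrays with the same number or letter ran from -0.19 to 0.11. The labels do not say whether samples were paired, and these correlations cannot settle it.

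Probe sets called in these contrasts numbered 1678, 3002, 3626, 4982 and 3132. They became 1078, 1906, 2297, 3257 and 2021 with the filter at 60%, 598, 928, 1581, 2352 and 1191 with a fold minimum of 2, and 4598, 6968, 7413, 8756 and 5109 with no fold minimum. Centring on the median moved the median of all genes by 0.14 for cisplatin in Rb null cells and 0.10 for the difference, and the share of higher calls to 56.25% and 51.5%, against 42.97% and 37.45% as deposited. Members called numbered the same under all 3 scalings. With no detection calls, the signals of Tnfrsf9, Tnfrsf19 and untreated Tnfrsf18 have no known background.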

Other observations

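Of the neighbours of Tnfrsf18, B3galt6, a glycosyltransferase gene of proteoglycan synthesis, averaged 173 ± 35.5 in Rb null cisplatin, 502 ± 94.4 in wildtype cisplatin, 189 ± 17.5 in untreated Rb null and 201 ± 23.5 in untreated wildtype cells (SD, n = 3). It rose under cisplatin in wildtype cells by 1.27 ± 0.16 and was at -0.14 ± 0.16 in Rb null cells. The gene was named after its values were seen, so they are a description and no p-value is given.

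Fibroblast markers, 9 of 10 measured, summed to 36171.8 to 37219.8 in Rb null cisplatin, 46903.1 to 49082.4 in wildtype cisplatin, 57385.7 to 59324.9 in untreated Rb null and 59951.3 to 63831.2 in untreated wildtype cells. Under cisplatin 4 of the 9 were called in Rb null cells, all lower, where 20.3% of all genes were called lower. In wildtype cells 2 rose and 4 fell, where 14.8% of all genes rose and 12.7% fell. Of the B cell markers Cd22 alone was tested, with log2 changes of -0.03 to 0.10 over the 5 contrasts, and of the endothelial markers Kdr alone, with -0.37 to 0.06, and neither was called. The B cell marker Cd79a, below the filter and so not tested, gave 127.6, 101.4 and 110.1 in Rb null cisplatin cells and at most 74.2 on any other array. For Cd79b, Ms4a1 and Blk, also below the filter, Rb null cisplatin arrays overlapped each other group. Among osteoblast markers Sp7 was called higher under cisplatin in wildtype cells, at 0.68 ± 0.27 with overlapping arrays. That call was lost when any of 9 of the 12 arrays was left out, and the value ran from 0.42 to 0.95.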
